A study of Arabidopsis thaliana with 9 samples.

Results

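The genes described here are 32 loci of phenylpropanoid, lignin and sinapate ester metabolism in Arabidopsis thaliana, taken by locus identifier from a table of mRNA counts for 29420 gene identifiers. They comprise 9 genes of the general pathway, 10 of monolignol synthesis, 3 laccases, 4 of sinapate ester synthesis, 3 monolignol glucosyltransferases and 3 MYB regulators. The rule that lists them uses no measured value, although it was drawn up with earlier results of these data known. All 32 are in the table, and 30 had enough counts to be tested.

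PolyA RNA came from whole seedlings, 10 days old, of the hda9-1 mutant, the pwr-2 mutant and wild type (WT), all of the Col ecotype, with 3 biological replicates of each genotype. HDA9 encodes a histone deacetylase of the RPD3 class, and PWR encodes POWERDRESS, a SANT-domain protein that, per the series title, interacts with HDA9 in deacetylation of histone H3. Each mutant is represented by 1 allele, and the labels describe no treatment. Each mutant is set against WT to ask how the pathway's transcripts differ between the genotypes. The libraries held 6450661 to 11150773 counts, the smallest being replicate 3 of hda9-1. At that depth a floor of 3 counts corresponds to 0.259 to 0.492 CPM, which are counts divided by each library's scaled total, a floor that covers counting error only. HDA9 was 7.04 ± 0.435 CPM in hda9-1 and 38.0 ± 1.42 CPM in WT (SD, n = 3 each), and PWR was 48.7 ± 7.41 CPM in pwr-2 and 141 ± 6.83 CPM in WT (SD, n = 3 each), so transcript of the mutated gene was lower in each mutant but not absent. Both comparisons with WT use the same 3 WT libraries, so a gene that moves in both mutants is not found independently in each.

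The phenylpropanoid pathway turns phenylalanine into cinnamate and then into coenzyme A esters, which feed lignin, flavonoids and sinapate esters. Lignin is polymerised in the walls of xylem vessels and fibres by laccases and peroxidases that oxidise monolignols. Sinapoylmalate, the main sinapate ester of Arabidopsis leaves, screens the plant from ultraviolet light, and MYB proteins of the R2R3 class activate or repress the genes of the pathway.

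Most of the pathway's genes were called in neither mutant, and a few changed. MYB4, a repressor of phenylpropanoid genes, 4CL3, the 4-coumarate:CoA ligase linked to flavonoid synthesis, and MYB58, an activator of lignin genes, were lower in both mutants, with log2 fold changes of -0.81, -0.82 and -0.71 in hda9-1 and of -0.67, -0.59 and -0.75 in pwr-2. PAL3, a phenylalanine ammonia-lyase, was higher in both, by 0.27 in hda9-1 and 0.37 in pwr-2. Its hda9-1 call was kept in 11 of 16 alternative fits. The laccase LAC4 was higher in pwr-2 by 0.53, a call kept in 12 of 15, and was not called in hda9-1 at 0.39. UGT84A2, which makes sinapoylglucose, was lower in hda9-1 by 0.36 and was not called in pwr-2. For LAC4 and UGT84A2 the mutants were not shown to differ.

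In hda9-1 against WT, 7 of the 30 tested genes were called, 1 higher and 6 lower, at an adjusted p under 0.05 by edgeR's quasi-likelihood F test, with p-values of 20171 genes adjusted after Benjamini and Hochberg. That is 23.3% of the 30, where 34.2% of all tested genes were called, 17.6% higher and 16.6% lower. With upper-quartile scaling the split was 0 higher and 11 lower, and with loess offsets 0 higher and 12 lower. Over all 20171 genes these settings called 7192 and 6237, of which 32.9% and 52.9% were higher. In pwr-2 against WT 7 of 30 were called, 3 higher and 4 lower, where 31.4% of all tested genes were called, 16% higher and 15.3% lower. The median log2 fold change of the 30 was -0.03 in hda9-1 and 0.04 in pwr-2, against 0.00 and -0.01 over all tested genes. With TMM scaling, the setting used unless another is named, neither share of called genes was above that of the whole table. With the replicate number as a block over all 9 libraries, 8 were called in hda9-1, 2 higher and 6 lower, where 6901 of 20171 genes were called. This block also ties the pwr-2 libraries to the numbers, although same-numbered correlations with pwr-2 were negative. That same-numbered hda9-1 and WT libraries are pairs was read from correlations in these data and is not named by the labels. When 1 library at a time was left out, the count of higher genes in hda9-1 was 0 in 3 of these fits, namely without WT replicate 1, hda9-1 replicate 2 or hda9-1 replicate 3. It was 3 when hda9-1 replicate 1 was left out and 2 when WT replicate 3 was. Over all tested genes those fits called 2623, 2863, 3200, 3744 and 3280 higher, in that order. In pwr-2 the calls numbered 11, 7 of them higher, without hda9-1 replicate 1 and also without hda9-1 replicate 3, and the higher genes numbered 1 without pwr-2 replicate 1. Over all tested genes these fits called 7080, 7581 and 4612 in pwr-2, of which 3576, 3978 and 2458 were higher, in that order.

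**Figure D1:**
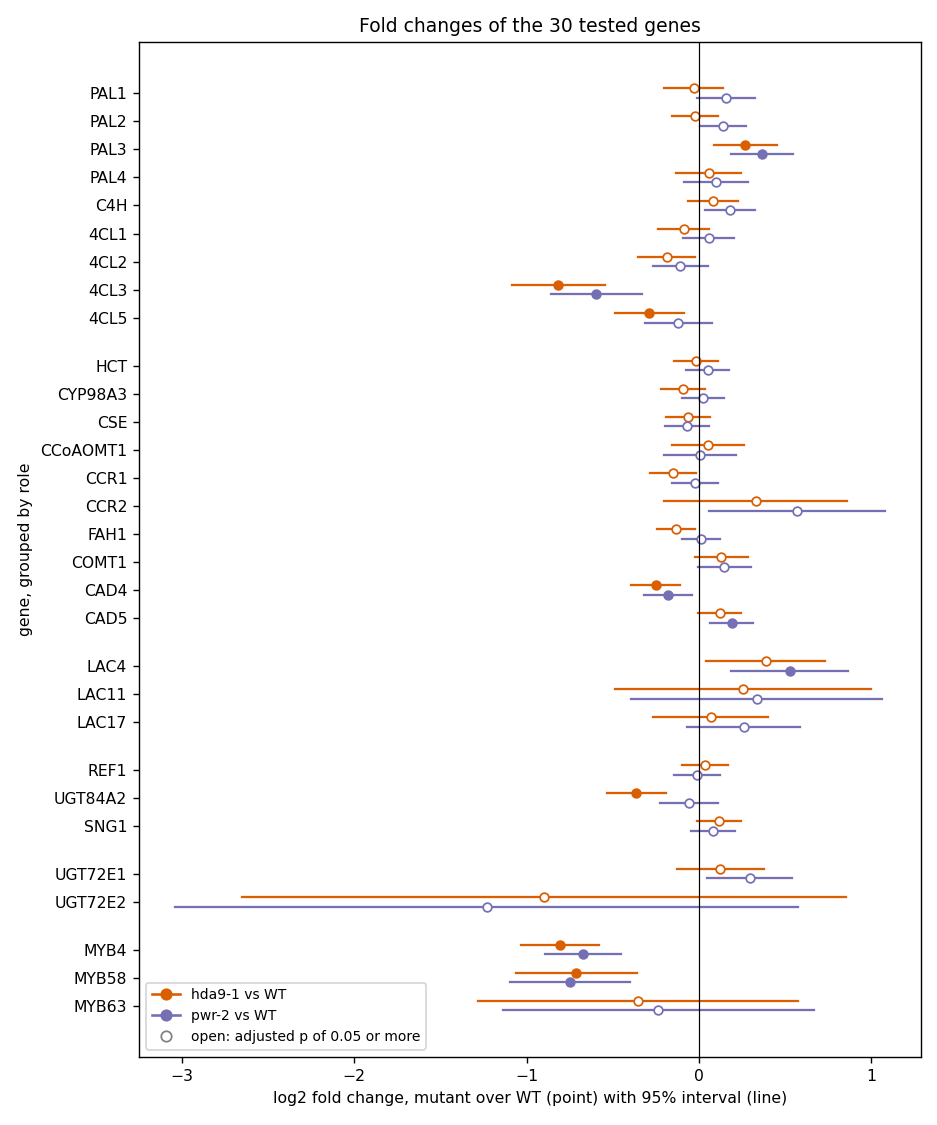
Log2 fold change (x axis, mutant over WT) of the 30 tested genes, grouped by role down the y axis, for hda9-1 (upper, orange) and pwr-2 (lower, purple), with 95% intervals as lines and filled points at an adjusted p under 0.05. MYB4, MYB58 and 4CL3 lie left of 0 in both mutants, while most intervals of the other genes cross 0 or lie near it.

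The promoters of 4CL3, MYB4 and MYB58 are shown because these were the called genes with the greatest changes and moved the same way in both mutants. Each is the 250 bases before the annotated gene start in RefSeq assembly TAIR10.1, read on the gene's own strand: chr1:24171636-24171885 on the minus strand for 4CL3, chr4:18053110-18053359 on the plus strand for MYB4 and chr1:5631089-5631338 on the minus strand for MYB58. Capitals mark AC elements, short motifs bound by MYB proteins in promoters of this pathway.
4CL3: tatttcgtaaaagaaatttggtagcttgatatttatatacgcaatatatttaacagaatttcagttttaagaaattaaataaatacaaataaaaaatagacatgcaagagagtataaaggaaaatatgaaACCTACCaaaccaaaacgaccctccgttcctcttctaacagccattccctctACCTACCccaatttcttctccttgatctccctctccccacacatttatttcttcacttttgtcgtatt
MYB4: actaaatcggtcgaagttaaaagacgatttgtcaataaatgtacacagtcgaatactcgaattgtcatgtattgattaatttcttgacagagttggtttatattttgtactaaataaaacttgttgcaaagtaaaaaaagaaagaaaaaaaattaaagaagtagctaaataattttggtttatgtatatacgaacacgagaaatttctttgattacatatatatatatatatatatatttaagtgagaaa
MYB58: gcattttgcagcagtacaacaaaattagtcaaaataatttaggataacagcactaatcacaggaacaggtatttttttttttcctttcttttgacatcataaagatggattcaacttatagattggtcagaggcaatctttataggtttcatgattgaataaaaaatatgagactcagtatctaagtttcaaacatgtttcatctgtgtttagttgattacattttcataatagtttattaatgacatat
The elements searched, on both strands, were ACCTACC, known as AC-I, then ACCAACC, known as AC-II, and last ACCTAAC, known as AC-III. They differ from one another, so a place holds at most 1 of them, although neighbours may share end bases. The 4CL3 window holds ACCTACC at 2 places, whose first bases lie 120 and 68 bases before the gene start. None of the 3 motifs was in the MYB4 or MYB58 window, which says only that these letters are not there. Over the 32 members, 10 windows held at least 1 motif, where 6.12% of 26709 protein-coding genes did. ACCTACC alone was in 1.16% of those windows, ACCAACC in 2.71% and ACCTAAC in 2.45%. Among the members, 4CL2 held ACCAACC at 2 places, HCT, CYP98A3, CCR1, CAD5, LAC11 and SNG2 held it at 1 each, CCoAOMT1 held ACCTACC and LAC17 held ACCTAAC. A motif was present in 2 of the 9 genes called in either mutant and in 7 of the 21 tested genes called in neither.

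Levels were compared between genes per kilobase of annotated exon. In WT the highest were HCT, SNG1, FAH1 and COMT1 at 76.4, 76.2, 70.4 and 65.6 CPM per kb. The first enzymes were close behind, with C4H at 60.5, 4CL1 at 53.1, PAL2 at 49.6 and PAL1 at 46.4 CPM per kb. The 3 laccases lay between 16.0 and 19.4 CPM per kb, and MYB4, at 18.5, was the most abundant of the regulators. At the low end, UGT72E2, MYB63 and CCR2 were at 1.33, 0.879 and 0.862 CPM per kb, and SNG2 and UGT72E3 at 0.263 and 0.0827 CPM per kb were too low to test. Leaf mesophyll markers, as a check of the labelled tissue, were abundant: 5 of them summed to 2659 to 3187 CPM in hda9-1, 2707 to 2895 CPM in pwr-2 and 2507 to 2676 CPM in WT, and none of the 5 was called in either mutant.

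**Figure D2:**
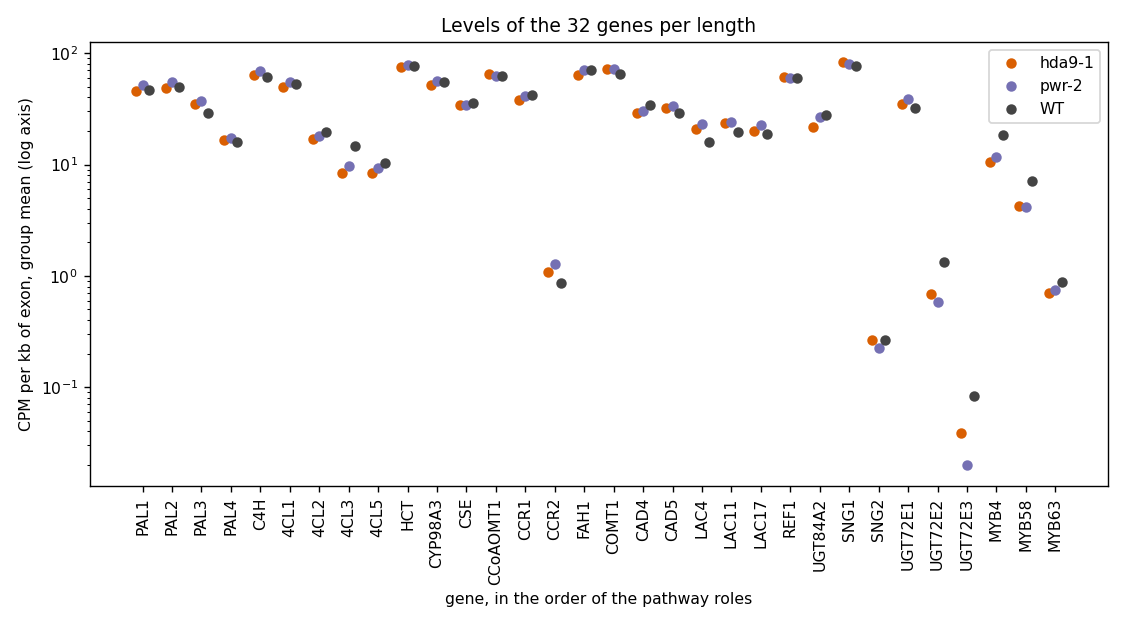
Group mean level of each of the 32 genes in CPM per kb of exon (log y axis), in pathway order along the x axis, for hda9-1, pwr-2 and WT from left to right. The levels run over a wide range, from HCT and SNG1 at the top to UGT72E3 at the bottom, and for 4CL3, MYB4 and MYB58 the WT point stands above both mutant points.

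Of the general pathway's 9 genes, 1 was called higher and 2 lower in hda9-1, and 1 higher and 1 lower in pwr-2, where 34.2% and 31.4% of all tested genes were called in hda9-1 and pwr-2, so neither count stands above the whole table. PAL enzymes remove ammonia from phenylalanine and make cinnamate. PAL3 (AT5G04230, chromosome 5, 1160569 to 1163957) had 79.5, 93.8 and 101 CPM in the hda9-1 libraries, 101, 100.4 and 90.7 CPM in the pwr-2 libraries and 70.4, 78.3 and 77.9 CPM in the WT libraries. Every mutant library lay above every WT library. The log2 fold change was 0.27 (SE 0.08, adjusted p = 0.0275, edgeR) in hda9-1 and 0.37 (SE 0.08, adjusted p = 0.00674, edgeR) in pwr-2. In hda9-1 the call was lost without WT replicate 1 (adjusted p = 0.101, edgeR), without hda9-1 replicate 2 (0.0894) and without hda9-1 replicate 3 (0.0775), and also with upper-quartile scaling and loess offsets (0.0680 and 0.0852). In pwr-2 it was kept in all 15 alternatives. Per kb of exon, PAL3 made up 23.9% ± 0.63 of the summed CPM of the 4 PAL genes in hda9-1 and 23.2% ± 1.03 in pwr-2, against 20.5% ± 0.42 in WT (SD, n = 3 each).

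PAL1, the isoform that with PAL2 supplies most lignin precursors, had 117, 137 and 147 CPM in hda9-1, 156, 147 and 153 CPM in pwr-2 and 129, 143 and 136 CPM in WT. The hda9-1 libraries span those of WT, and the pwr-2 libraries lie above them. Neither difference was called, with log2 fold changes of -0.03 (95% interval -0.20 to 0.14) in hda9-1 and 0.16 (-0.01 to 0.33) in pwr-2. C4H, the cytochrome P450 that hydroxylates cinnamate, had 121, 134 and 146 CPM in hda9-1, 146, 145 and 137 CPM in pwr-2 and 122, 128 and 129 CPM in WT. All 3 pwr-2 libraries were above all 3 WT libraries, but the difference of 0.18 on the log2 scale (SE 0.07) missed the threshold at an adjusted p of 0.0571 by edgeR. It passed without the low-count filter (0.0494), without hda9-1 replicate 1 (0.0189) and without hda9-1 replicate 3 (0.0159), and also with only pwr-2 and WT fitted. In hda9-1 C4H differed from WT by 0.08 (95% interval -0.07 to 0.23). PAL2 and PAL4 were not called in either mutant, with log2 fold changes of -0.02 and 0.05 in hda9-1 and 0.14 and 0.10 in pwr-2. In pwr-2, PAL1 and PAL2 were called higher in 2 and 3 of 15 alternatives. In hda9-1 loess offsets called both lower.

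The 4CL enzymes attach coenzyme A to 4-coumarate and related acids. 4CL3 (AT1G65060, chromosome 1, 24167202 to 24171635), whose promoter with its pair of ACCTACC elements is printed above, had 15.5, 21.8 and 18.2 CPM in hda9-1, 23.9, 18.8 and 22.1 CPM in pwr-2 and 29.7, 34.9 and 32.9 CPM in WT. No mutant library reached the lowest WT library. On the log2 scale it fell by 0.82 in hda9-1 (SE 0.12, adjusted p = 0.000497, edgeR) and by 0.59 in pwr-2 (SE 0.12, adjusted p = 0.00364, edgeR), calls that all alternatives kept. 4CL5, a ligase able to use sinapate, had 17.3, 20.8 and 20.7 CPM in hda9-1, 21.2, 22.9 and 21.5 CPM in pwr-2 and 22.5, 23.4 and 25.5 CPM in WT. The hda9-1 libraries lie below the WT libraries, and 1 pwr-2 library lies within the WT range. It fell in hda9-1 by 0.29 on the log2 scale (SE 0.09, adjusted p = 0.0304, edgeR) and was not called in pwr-2 at -0.12 (95% interval -0.32 to 0.08). The hda9-1 call was lost without WT replicate 2, WT replicate 3 or hda9-1 replicate 1 (adjusted p = 0.0640, 0.0834 and 0.0992, edgeR), with loess offsets (0.217), with hda9-1 and WT fitted alone (0.0562) and with DESeq2 (0.108). 4CL1, the main ligase of lignin synthesis, averaged 128 ± 12.3 CPM in hda9-1, 141 ± 3.96 CPM in pwr-2 and 136 ± 3.25 CPM in WT (SD, n = 3 each) and was not called. Neither was 4CL2, at -0.19 in hda9-1 and -0.11 in pwr-2. In hda9-1, 4CL1 and 4CL2 were called lower in 2 and 3 of 16 alternatives. Within the 4CL genes, per kb of exon, 4CL3 supplied 9.93% ± 0.91 of the summed CPM in hda9-1 and 10.6% ± 1.13 in pwr-2, against 15.1% ± 0.74 in WT, while 4CL1 supplied 59.7% ± 1.36 and 59.8% ± 0.37, against 54.5% ± 0.75 (SD, n = 3 each). These shares are given without a test, and a share of a sum moves whenever any of its terms does.

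Among the 10 monolignol genes, CAD4 was called lower in both mutants and CAD5 higher in pwr-2, and the other 8 were called in neither. Of all tested genes 34.2% were called in hda9-1 and 31.4% in pwr-2. CAD4 and CAD5 encode the cinnamyl alcohol dehydrogenases that make the lignin alcohols in Arabidopsis stems. CAD4 (AT3G19450, chromosome 3, 6744377 to 6747238) had 49.2, 53.2 and 55.6 CPM in hda9-1, 59.2, 55.5 and 50.6 CPM in pwr-2 and 61.7, 61.4 and 64.5 CPM in WT. Both mutants lay below WT in every library. The fall was 0.25 on the log2 scale in hda9-1 (SE 0.07, adjusted p = 0.0118, edgeR), kept in all 16 alternatives, and 0.18 in pwr-2 (SE 0.06, adjusted p = 0.0495, edgeR). The pwr-2 call sits at the threshold and was lost in 9 of 15 alternatives. Among them were the fits without WT replicate 1, 2 or 3 (adjusted p = 0.0873, 0.0820 and 0.105, edgeR), without pwr-2 replicate 2 or 3 (0.106 and 0.161) and without hda9-1 replicate 2 (0.0602).

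CAD5 (AT4G34230, chromosome 4, 16386631 to 16388940) went the other way, with 48.8, 51.5 and 54.7 CPM in hda9-1, 54.0, 55.9 and 51.9 CPM in pwr-2 and 48.8, 46.8 and 46.4 CPM in WT. The pwr-2 libraries all lie above WT, and the lowest hda9-1 library lies at the level of the highest WT library. The log2 fold change was 0.19 in pwr-2 (SE 0.06, adjusted p = 0.0249, edgeR) and 0.12 in hda9-1 (95% interval -0.01 to 0.24), where it was not called. The pwr-2 call was lost without WT replicate 2 (adjusted p = 0.0715, edgeR), pwr-2 replicate 1 (0.0592) or pwr-2 replicate 2 (0.102), with upper-quartile scaling (0.102) and with DESeq2 (0.107). Per kb of exon, CAD5 made up 52.4% ± 0.33 of the summed CPM of the pair in hda9-1 and 52.3% ± 1.56 in pwr-2, against 45.9% ± 1.18 in WT (SD, n = 3 each). Per kb, CAD5 was the more abundant of the pair in every mutant library and CAD4 in every WT library.

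The remaining monolignol genes did not pass the test in either mutant. Some alternatives in hda9-1 called CCR1 (4 of 16), CYP98A3 (2) and HCT (1) lower and COMT1 (2) higher. COMT1 was also called higher in pwr-2 in 2 of 15 alternatives. HCT and CYP98A3, which make and hydroxylate the shikimate ester, differed from WT by -0.02 and -0.09 in hda9-1 and by 0.05 and 0.02 in pwr-2 on the log2 scale. CSE, the esterase that releases caffeate, differed by -0.07 and -0.07, and the methyltransferase CCoAOMT1 by 0.05 and 0.01. FAH1, the ferulate 5-hydroxylase that opens the route to sinapate and syringyl lignin, had 124, 127 and 133 CPM in hda9-1, 144, 141 and 139.6 CPM in pwr-2 and 139.7, 139 and 143 CPM in WT. Its hda9-1 libraries are all below WT, but the difference of -0.13 (SE 0.05) had an adjusted p of 0.0600 by edgeR. It passed with upper-quartile scaling (0.00175), with loess offsets (0.000228) and without hda9-1 replicate 3 (0.0201). In pwr-2 FAH1 differed by 0.01 (95% interval -0.10 to 0.12), and by -0.13 with loess offsets. COMT1, the methyltransferase of the syringyl branch, was not called at 0.13 in hda9-1 and 0.15 in pwr-2. CCR1, the cinnamoyl-CoA reductase of lignin synthesis, was not called at -0.15 (adjusted p = 0.0740, edgeR) in hda9-1 and -0.02 in pwr-2. CCR2, linked to defence, held only 22, 21 and 13 counts in hda9-1, 26, 23 and 21 in pwr-2 and 20, 19 and 16 in WT, and its difference in pwr-2 of 0.57 had a 95% interval of 0.06 to 1.08.

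A missed threshold does not show equality, so the intervals were counted. In hda9-1, 12 of the 23 genes not called had a 95% interval wholly within 0.25 of 0 on the log2 scale, and 18 within 0.5. In pwr-2, 10 of 23 were within 0.25 and 17 within 0.5. 4CL1, CSE, CYP98A3, FAH1, HCT, REF1 and SNG1 were within 0.25 in both. Outside 0.5 in both were UGT72E2, MYB63, CCR2 and LAC11, for which differences larger than 0.5 are not excluded. CCR2 was called in pwr-2 with loess offsets (0.91, adjusted p = 0.0150, edgeR).

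**Figure D3:**
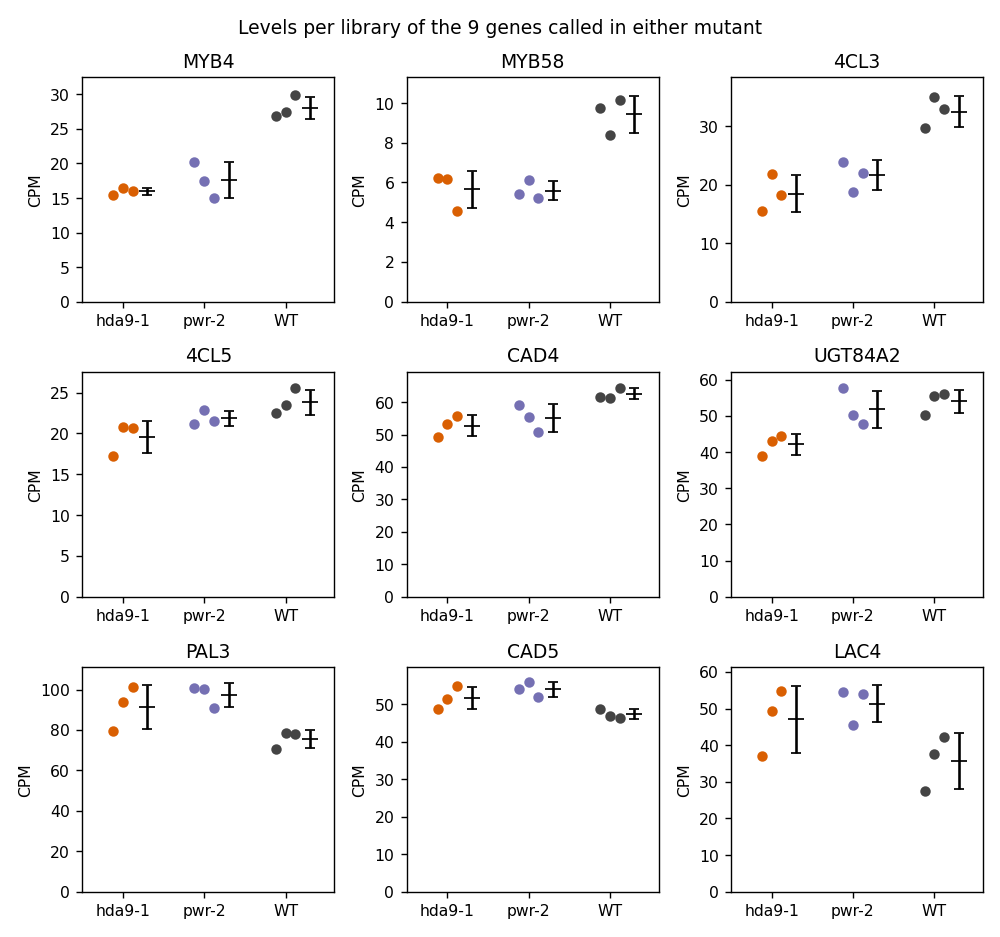
Level in CPM (y axis from 0) of the 9 genes called in either mutant, 1 panel per gene, with each library as a point and mean ± SD (n = 3) as a bar for hda9-1, pwr-2 and WT. The WT points of MYB4, MYB58, 4CL3 and CAD4 lie above every mutant point, and those of PAL3 lie below every mutant point.

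The laccases LAC4, LAC11 and LAC17 oxidise monolignols in the walls of xylem cells, and together they are needed for lignin in Arabidopsis stems. LAC4 (AT2G38080, chromosome 2, 15934244 to 15937616) had 37.0, 49.3 and 54.9 CPM in hda9-1, 54.4, 45.5 and 53.9 CPM in pwr-2 and 27.4, 37.6 and 42.3 CPM in WT. The pwr-2 libraries all lie above WT, while the hda9-1 and WT libraries overlap. It rose in pwr-2 by 0.53 on the log2 scale (SE 0.16, adjusted p = 0.0238, edgeR). The hda9-1 difference, 0.39 (SE 0.16), was not called (adjusted p = 0.0796, edgeR). With the replicate block over all 9 libraries it was called at 0.39 (adjusted p = 0.0352, edgeR), and in each numbered pair hda9-1 was above WT. The pwr-2 call was lost without WT replicate 1 (log2 fold change 0.36, adjusted p = 0.0797, edgeR), without pwr-2 replicate 1 (0.0787) and without pwr-2 replicate 3 (0.0697). The hda9-1 difference was called without WT replicate 3 (0.0354) or hda9-1 replicate 1 (0.0179).

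LAC11 had 21.8, 58.1 and 56.1 CPM in hda9-1, 52.9, 36.8 and 51.3 CPM in pwr-2 and 21.1, 40.8 and 50.9 CPM in WT. Replicate 1 of hda9-1 and of WT were far below the other libraries of their genotype, and no difference was called (0.26 in hda9-1, 0.33 in pwr-2). In each numbered pair hda9-1 was above WT, and with the replicate block in a fit of hda9-1 and WT alone, chosen after seeing the data, LAC11 was called (0.28, adjusted p = 0.00530, edgeR). That fit called 9472 of 20096 tested genes. LAC17 had 31.4, 48.1 and 45.4 CPM in hda9-1, 49.1, 43.0 and 49.4 CPM in pwr-2 and 31.6, 44.1 and 42.6 CPM in WT. The same 2 libraries were lowest for LAC17, which was not called at 0.07 in hda9-1 and 0.26 in pwr-2. Markers of xylem and secondary walls moved with them: the summed level of 10 such genes was 307.9, 404 and 409 CPM in hda9-1, 413, 380.1 and 406 CPM in pwr-2 and 272, 341 and 333 CPM in WT. Of these 10 markers 1 was called higher in hda9-1, XCP2, and 6 in pwr-2, XCP2, IRX10, IRX9, CESA7, CESA4 and GAUT12, with none lower and none at 0. Of all tested genes 17.6% were called higher in hda9-1 and 16% in pwr-2. The 6 higher calls in pwr-2 became 0 without WT replicate 1 or pwr-2 replicate 2, 1 without pwr-2 replicate 1, without pwr-2 replicate 3 or with upper-quartile scaling, 4 with loess offsets or DESeq2, and 8 when only pwr-2 and WT were fitted or without hda9-1 replicate 1. Over all tested genes, higher calls in pwr-2 numbered 2276 without WT replicate 1 and 2120 without pwr-2 replicate 2. They numbered 3952 with only pwr-2 and WT fitted and 3576 without hda9-1 replicate 1. In hda9-1 the count was 0 without WT replicate 1, WT replicate 2, hda9-1 replicate 2 or hda9-1 replicate 3. It was 2 with the replicate block or without WT replicate 3, and 4 without hda9-1 replicate 1. The median log2 fold change of the 10 markers was 0.17 in hda9-1 and 0.38 in pwr-2, and LAC4 stood at 0.39 and 0.53. The part of xylem content in the LAC4 result was not tested, and in whole seedlings more cells of a type cannot be told apart from more RNA per cell.

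**Figure D4:**
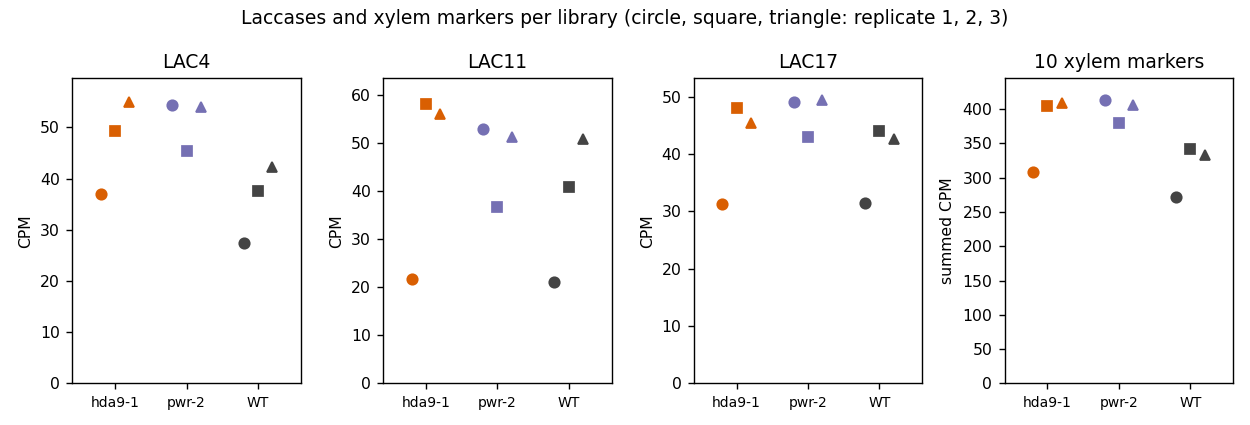
Levels in CPM of LAC4, LAC11 and LAC17 and the summed CPM of 10 xylem and secondary wall markers (y axes from 0) in each library of hda9-1, pwr-2 and WT, with circle, square and triangle for replicates 1, 2 and 3. Replicate 1 is the lowest library of hda9-1 and of WT in all 4 panels, and the pwr-2 libraries lie closer together.

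Sinapate esters are made in leaves by REF1, UGT84A2 and SNG1, and in seeds by SNG2. Of the 3 tested genes UGT84A2, the glucosyltransferase that makes sinapoylglucose, was called lower in hda9-1, and no other call was made in either mutant. UGT84A2 (AT3G21560, chromosome 3, 7595680 to 7597607) had 39.0, 43.0 and 44.6 CPM in hda9-1, 57.6, 50.3 and 47.8 CPM in pwr-2 and 50.3, 55.6 and 56.2 CPM in WT. The hda9-1 libraries lie below all others, and the pwr-2 libraries spread around those of WT. It fell in hda9-1 by 0.36 on the log2 scale (SE 0.08, adjusted p = 0.00473, edgeR), in all 16 alternatives, and differed by -0.06 (95% interval -0.23 to 0.11) in pwr-2. Tested directly, pwr-2 was 0.30 above hda9-1 (SE 0.08), which did not pass (adjusted p = 0.128, edgeR), so the mutants are not shown to differ. SNG1, the acyltransferase that forms sinapoylmalate, had 173, 165 and 181 CPM in hda9-1, 161, 169 and 176 CPM in pwr-2 and 159, 164 and 156 CPM in WT. It was not called, with 95% intervals of -0.01 to 0.24 in hda9-1 and -0.05 to 0.21 in pwr-2. REF1, an aldehyde dehydrogenase that yields sinapate and ferulate, differed by 0.04 in hda9-1 and -0.01 in pwr-2 and was not called. With loess offsets REF1 was called lower in pwr-2. SNG2, which forms sinapoylcholine in seeds, totalled 11 counts in hda9-1, 10 in pwr-2 and 14 in WT and was not tested.

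The UGT72E enzymes attach glucose to monolignols and their aldehydes. UGT72E1 averaged 69.9 ± 11.8 CPM in hda9-1, 77.9 ± 9.52 CPM in pwr-2 and 63.7 ± 5.72 CPM in WT (SD, n = 3 each). Its difference in pwr-2 was 0.29 (SE 0.11) with an adjusted p of 0.0666 by edgeR, and it was called without WT replicate 3 (0.0396), hda9-1 replicate 1 (0.0466), hda9-1 replicate 3 (0.0229) or pwr-2 replicate 3 (0.0376). The same call was made without the low-count filter and with only pwr-2 and WT fitted. UGT72E2 varied within every genotype, with 28, 2 and 3 counts in hda9-1, 14, 12 and 1 in pwr-2 and 36, 37 and 4 in WT. Its 95% intervals, -2.65 to 0.85 in hda9-1 and -3.04 to 0.58 in pwr-2, leave its direction unknown. UGT72E3 totalled 2 counts in hda9-1, 1 in pwr-2 and 5 in WT and was not tested.

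Of the 3 regulators, MYB4 and MYB58 were called lower in both mutants and MYB63 in neither. The share of all tested genes called lower was 16.6% in hda9-1 and 15.3% in pwr-2. MYB4 (AT4G38620, chromosome 4, 18053360 to 18055040) represses C4H and other genes of the pathway. It had 15.5, 16.5 and 16.1 CPM in hda9-1, 20.2, 17.5 and 15.0 CPM in pwr-2 and 26.8, 27.4 and 29.9 CPM in WT. The highest mutant library lay below the lowest WT library. It fell in hda9-1 by 0.81 on the log2 scale (SE 0.10, adjusted p = 0.000155, edgeR) and in pwr-2 by 0.67 (SE 0.10, adjusted p = 0.000635, edgeR), and all alternatives kept both calls. C4H itself was not called in either mutant, as given above.

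MYB58 (AT1G16490, chromosome 1, 5629655 to 5631088) and MYB63 are close relatives that activate lignin genes through AC elements. MYB58 had 6.21, 6.19 and 4.59 CPM in hda9-1, 5.42, 6.13 and 5.23 CPM in pwr-2 and 9.76, 8.39 and 10.2 CPM in WT, and no mutant library reached WT. It fell in hda9-1 by 0.71 on the log2 scale (SE 0.16, adjusted p = 0.00564, edgeR) and in pwr-2 by 0.75 (SE 0.16, adjusted p = 0.00506, edgeR), in all alternatives. All exon bases of MYB58 are overlapped by AT1G16489, a gene on the opposite strand that had 30, 33 and 14 counts in hda9-1, 28, 30 and 28 in pwr-2 and 47, 55 and 41 in WT. Those counts were 45.6% to 63.6% of the MYB58 counts in every library, and without the strand setting of the counting, reads of the 2 genes cannot be told apart. MYB63 held 13, 5 and 7 counts in hda9-1, 6, 10 and 13 in pwr-2 and 19, 13 and 8 in WT, and its difference of -0.35 in hda9-1 had a 95% interval of -1.28 to 0.57. Overlap with opposite-strand genes of the table also touched 24.2% of the exon bases of CCR1 and of LAC17, 6.29% of CCR2, 5.86% of REF1 and 3.71% of CYP98A3, and under 2% in 4 other members. For CCR1 the overlap was 77.2% with AT1G05213 included, an annotated gene on the opposite strand that has no counts of its own here.

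Other genes around the pathway were followed in 7 further lists. The shares of all tested genes to set beside each list's calls are 17.6% higher and 16.6% lower in hda9-1. In pwr-2 they are 16% higher and 15.3% lower. Of 15 other secondary wall regulators 10 were tested, with 3 lower in hda9-1 (MYB7, MYB32 and MYB43), 1 lower in pwr-2 (MYB43) and 0 higher in either. MYB7 and MYB32, the closest relatives of MYB4, were -0.85 (SE 0.28) and -0.36 (SE 0.12) in hda9-1, and were not called in pwr-2 at -0.60 and -0.15. Their hda9-1 calls were lost in 5 and 7 of 16 alternatives, at adjusted p-values up to 0.151 and 0.384 (edgeR or DESeq2), including the fits without WT replicate 1, hda9-1 replicate 2 or hda9-1 replicate 3 for each gene, and without WT replicate 2 or 3 for MYB32. MYB43 was -0.56 (SE 0.15) in hda9-1 and -0.55 (SE 0.15) in pwr-2; the hda9-1 call was lost without hda9-1 replicate 2 (adjusted p = 0.0635, edgeR) or with loess offsets (0.0554), and the pwr-2 call without WT replicate 1, WT replicate 2 or pwr-2 replicate 1 (0.0559, 0.0558 and 0.0599) or with loess offsets (0.0650). The median log2 fold change of the 10 regulators was 0.01 in hda9-1 and 0.19 in pwr-2.

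Peroxidases act beside laccases in lignin polymerisation. Of 10 listed 7 were tested, and PRX47 and PRX66, both linked to vessel lignification, rose in each mutant. PRX47 had 24.6, 30.6 and 34.6 CPM in hda9-1, 26.1, 26.4 and 28.0 CPM in pwr-2 and 6.82, 9.60 and 10.7 CPM in WT. Every mutant library was above every WT library, with log2 fold changes of 1.72 (SE 0.15, adjusted p = 1.24e-05, edgeR) and 1.58 (SE 0.15, adjusted p = 3.57e-05, edgeR), larger than those of any member called. PRX66 was 0.42 (SE 0.12) in hda9-1 and 0.36 (SE 0.12) in pwr-2. Its hda9-1 call was lost without WT replicate 1 or 2 or hda9-1 replicate 2 or 3 (adjusted p up to 0.0820, edgeR), and its pwr-2 call without WT replicate 1 or 2, hda9-1 replicate 2 or any pwr-2 replicate, and with upper-quartile scaling or loess offsets (up to 0.162).

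Of 14 other laccases 9 were tested. LAC2 rose in both mutants, to 5.04 ± 1.27 CPM in hda9-1 and 7.72 ± 0.364 CPM in pwr-2, against 2.71 ± 0.584 CPM in WT (SD, n = 3 each). Its log2 fold changes were 0.86 (SE 0.24) and 1.49 (SE 0.22), and the hda9-1 call was lost without WT replicate 1 (0.0619) or hda9-1 replicate 2 (0.0644). LAC10 rose in pwr-2 by 0.73 (SE 0.16) and was not called in hda9-1 at 0.36, and LAC8 was lower in both, at -0.71 (SE 0.20) and -0.74 (SE 0.20). The LAC8 calls were lost without WT replicate 1 or 2 and with loess offsets in both mutants (adjusted p up to 0.0853 in hda9-1 and 0.0722 in pwr-2, edgeR), without hda9-1 replicate 2 in hda9-1 and without pwr-2 replicate 1 in pwr-2. LAC1 was lower in hda9-1 at -1.26 (SE 0.37), a call lost without WT replicate 3 (0.0584) or hda9-1 replicate 2 (0.0787), and likewise under loess offsets (0.0779).

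CAD8, an elicitor-responsive alcohol dehydrogenase and 1 of 7 other CAD family genes tested, had 1.37, 0.663 and 0.164 CPM in hda9-1, 0.862, 2.15 and 0.683 CPM in pwr-2 and 9.38, 3.55 and 7.56 CPM in WT. It fell by 3.06 (SE 0.54) and 2.42 (SE 0.49) on the log2 scale, and the other 6 were called in neither mutant. The 0.164 CPM of CAD8 in hda9-1 replicate 3 lies below that library's floor of 0.492 CPM, so the size of its fall is uncertain. Of 6 genes for F-box proteins that target PAL for degradation and for Mediator subunits that limit the pathway, 3 rose in hda9-1 (KFB1, KFB20 and RFR1), 2 in pwr-2 (KFB1 and KFB20) and 0 fell, where 17.6% and 16% of all tested genes were called higher in hda9-1 and pwr-2. Without WT replicate 1 the count in hda9-1 was 0 and in pwr-2 1, and without WT replicate 2 it was 1 in each. In pwr-2 it was also 1 without hda9-1 replicate 1 or 2, without any 1 pwr-2 replicate, with upper-quartile scaling and with DESeq2. KFB20 had 120.0, 130.0 and 148 CPM in hda9-1, 139, 137 and 138 CPM in pwr-2 and 91.3, 103 and 119 CPM in WT, with log2 fold changes of 0.34 (SE 0.09) and 0.41 (SE 0.09). All mutant libraries lie above the highest WT library, hda9-1 replicate 1 by a narrow margin. Without WT replicate 1 its hda9-1 call was lost (adjusted p = 0.0599, edgeR). KFB1 was 0.45 (SE 0.13) and 0.38 (SE 0.13), and its calls were lost in 3 of 16 alternatives in hda9-1 (without WT replicate 1, WT replicate 2 or hda9-1 replicate 3, adjusted p up to 0.0994, edgeR) and in 9 of 15 in pwr-2 (up to 0.177, among them the fits without any 1 pwr-2 replicate). RFR1, at 0.16 (SE 0.05) in hda9-1, lost its call in 9 of 16 alternatives, including those without any 1 WT replicate (adjusted p up to 0.516 over the alternatives).

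Of 11 other acyl, methyl and glucosyl transfer genes and monolignol glucosidases, 10 were tested. SCPL9, an acyltransferase that forms disinapoylglucose, was lower in both mutants, at -0.53 (SE 0.06, adjusted p = 8.59e-05, edgeR) in hda9-1 and -0.30 (SE 0.06, adjusted p = 0.00348, edgeR) in pwr-2, in all alternatives. BGLU46, a glucosidase of monolignol glucosides, rose in hda9-1 by 0.97 (SE 0.23), with 14.7, 14.0 and 15.9 CPM against 6.73, 8.13 and 7.79 CPM in WT. UGT84A4, a relative of UGT84A2, was lower in hda9-1 and BGLU45 in pwr-2, and these calls were kept in only 7 of 16 and 5 of 15 alternatives, with adjusted p up to 0.212 and 0.184. All 7 flavonoid enzymes tested were lower in hda9-1 and 5 in pwr-2, where 16.6% and 15.3% of all tested genes were called lower. The medians were -0.95 and -0.59. For F3H, called in both mutants, 93.8% of exon bases are overlapped by AT3G51238 on the opposite strand. Their log2 fold changes ran from -0.43 for CHI, chalcone isomerase, to -2.67 for DFR in hda9-1 and from -0.11, not called, to -1.64 for the same genes in pwr-2. This branch draws on the coenzyme A esters made by the 4CL enzymes. These flavonoid enzymes were known from earlier results of these data to be lower and add no independent support.

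Among markers of the endodermis, which lays down lignin in the Casparian strip, MYB36 and CASP2 averaged under 1 CPM in every genotype and were not tested. Of the 2 that were tested, ESB1, a dirigent-like protein of the Casparian strip, was lower in both mutants, at -0.45 (SE 0.11) in hda9-1 and -0.51 (SE 0.11) in pwr-2, and CASP1 was called in neither. The hda9-1 call of ESB1 was lost with loess offsets (adjusted p = 0.05004, edgeR). AT2G28671 on the opposite strand overlaps 84.3% of the exon bases of ESB1. Without the strand setting of the counting, reads of the pair cannot be told apart. The median log2 fold change of ESB1 and CASP1 was -0.12 in hda9-1 and -0.21 in pwr-2, so CASP1 itself was not lower. The 4 markers named here summed to 15.5 to 17.6 CPM in hda9-1, 14.3 to 15.5 CPM in pwr-2 and 18.2 to 22.5 CPM in WT. Every mutant library thus lay below every WT library. MYB36 and CASP2 added little to these sums, so the lower sums mostly reflect ESB1. The part of endodermis content in the lower levels of MYB4, MYB58 and 4CL3 was not tested.

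Set against each other, pwr-2 and hda9-1 differed in none of the 30 genes by edgeR's quasi-likelihood F test at an adjusted p under 0.05, where 0.421% of all tested genes were called, 0.312% higher and 0.109% lower in pwr-2, and DESeq2 also called 0. At an unadjusted p under 0.05 there were 4, UGT84A2 (0.30, SE 0.08), FAH1 (0.14, SE 0.05), PAL1 (0.19, SE 0.08) and PAL2 (0.16, SE 0.06), all higher in pwr-2, with adjusted p-values of 0.128, 0.246, 0.313 and 0.276. The median log2 fold change of pwr-2 over hda9-1 was 0.11 for the 30 genes and -0.01 for all tested genes. For MYB4, 4CL3 and MYB58 the differences between the mutants were 0.13, 0.22 and -0.04, with 95% intervals of -0.11 to 0.37, -0.07 to 0.51 and -0.41 to 0.34. Of the 30 intervals, 11 lay within 0.25 of 0 and 24 within 0.5.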

How the data were processed

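PolyA RNA of 9 libraries was measured by stranded, dUTP-marked RNA-seq, per the labels' protocols. The deposited table holds the authors' raw read counts of each gene in each library. The submitters' processing notes name HISAT2 and TAIR10, while the counting tool, its strand setting and its treatment of duplicate reads are not given in the sources used here. No gene took more than 0.0901% of a library's counts, a low share for seedlings, and whether removal of duplicates changed the folds of abundant genes was not tested.

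Groups came from the genotype labels. Genes were filtered with filterByExpr, which left 20171, scaled with TMM factors and tested in edgeR 4.0.16 (R 4.3.3) by its quasi-likelihood F test in 1 model of genotype over 9 libraries. Benjamini-Hochberg adjustment ran over all tested genes, and a gene is called at an adjusted p under 0.05. The SE was taken from the log2 fold change and its F statistic. The 95% intervals use the test's total degrees of freedom, which add edgeR's prior ones to the residual ones. CPM are counts divided by the library total times its TMM factor, scaled to a common size. The steps were tested on simulated data. Alternatives were DESeq2 1.42.0, upper-quartile factors, loess offsets (limma 3.58.1), no low-count filter, the compared genotypes alone, the replicate number as a block and leaving out each library. In all, 28932 identifiers matched the RefSeq annotation of TAIR10.1, which gave names, exon lengths and promoters.

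The replicate numbers were checked by correlating the deviations of same-numbered libraries from their group means: r was 0.36 to 0.46 between hda9-1 and WT, where the numbers were taken to pair the libraries, and negative in the comparisons with pwr-2.

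The members, the 10 gene lists and the tests were chosen with earlier results of these data known. Named with values in every library are members called in either mutant and LAC4, PAL1, C4H, FAH1, SNG1 and MYB4; from each list, up to 3 called genes with the smallest adjusted p in either mutant. Further called list genes, the low-count members CCR2, UGT72E2 and MYB63, LAC11, LAC17 and AT1G16489 were added after their values were seen. A ranking of members by correlation with the most changed gene was dropped, since the libraries fall into genotype groups, and protein sequences were not used here. Of the endodermis list, 1 gene is not reported here, and the summed level is that of the other 4.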

Additional observations from a re-analysis of the deposited data

Results flagged for a closer look

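DFR, which makes leucoanthocyanidins in the anthocyanin branch, was the 1 gene of the members and lists that differed between the mutants. It had 5.05, 4.19 and 4.44 CPM in pwr-2 and 2.21, 2.54 and 1.80 CPM in hda9-1, beside 13.5, 13.9 and 15.2 CPM in WT. The log2 fold change of pwr-2 over hda9-1 was 1.03 (SE 0.19, adjusted p = 0.0434, edgeR quasi-likelihood test), higher in all 3 pwr-2 libraries than in any hda9-1 library. The value lay between 0.93 and 1.15 in all 15 alternatives, with adjusted p-values of 0.0300 to 0.198, and the call was kept in 6 of them. It was lost with the replicate block, with the 2 genotypes alone, and without WT replicate 1 or 2, any 1 hda9-1 replicate, or pwr-2 replicate 1 or 2.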

How the results depend on the processing

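Of the called members, the 3 with the largest changes, MYB4, MYB58 and 4CL3, kept their calls in both mutants under every alternative run, as did CAD4 and UGT84A2 in hda9-1 and PAL3 in pwr-2. The number of members called in hda9-1 moved from 7 to 11 with upper-quartile factors and to 12 with loess offsets, all of them lower (11 and 12) and 0 higher. Upper-quartile factors moved the median of all tested genes to -0.08 and their share of higher calls from 51.6% to 32.9%. With loess offsets that share was 52.9%. With the replicate block over all 9 libraries the higher members in hda9-1 were 2. With the block in a fit of hda9-1 and WT alone, an alternative chosen after seeing the data, 12 were called and 4 of them higher. Among them were LAC11 (log2 fold change 0.28, adjusted p = 0.0053, edgeR) and COMT1 (0.13, adjusted p = 0.0462, edgeR). Over the whole table that fit called 9472 of 20096 tested genes, 4771 higher and 4701 lower. In pwr-2 the higher members were 5 without the low-count filter, and with only pwr-2 and WT fitted 12 were called, 8 of them higher. Over all tested genes, the fit without the filter called 6352 of 25024, 3251 of them higher. The fit of pwr-2 and WT alone called 7608 of 19995, 3952 of them higher. Leaving out 1 library gave 6 to 8 called in hda9-1 (0 to 3 higher, 5 to 8 lower), 5 to 11 in pwr-2 (1 to 7 higher, 3 to 4 lower) and 0 to 0 between the mutants. Over all tested genes the same fits called 4932 to 7137 in hda9-1, 3917 to 7581 in pwr-2 and 9 to 252 between the mutants. FAH1 in pwr-2 turned from 0.01 to -0.13 with loess offsets (adjusted p = 0.0186, edgeR). The causes were not tested. In pwr-2, where the numbers do not pair the libraries, the block left 6 members called and CAD4 lost its call (adjusted p = 0.0716, edgeR); same-numbered correlations were -0.13 to -0.01 with WT and -0.24 to -0.19 with hda9-1. Single-gene results were tallied for each alternative, for the tested members in every comparison and for list genes where the main fit called them. Of these, 1917 kept their side of the threshold, 162 lost the call, 43 gained it and 1 reversed. Those that kept their side include members of pwr-2 against hda9-1, none of which was called in any setting. Depth limits CCR2, MYB63, UGT72E2, UGT72E3 and SNG2, and CAD8 among the listed genes.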
